A study of Mus musculus with 8 samples.

Results

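Nuclear-encoded subunits of respiratory complexes II to V, with cytochrome c, were followed in mouse gastrocnemius muscle labelled wild type or glucocorticoid receptor (GR) KO. Members were the genes whose single symbol in the platform's probe annotation was Sdha, Sdhb, Sdhc, Sdhd, Cyc1 or Cycs, or began with Uqcr, with Cox and a digit from 4 to 8, or with Atp5. This gave 48 of the 18193 genes on the array, read by 96 probe sets, and each gene was represented by its brightest probe set over all 8 arrays. By complex these were 4 genes of complex II, 10 of complex III with its partner cytochrome c, 17 of complex IV and 17 of complex V. A filter on dim signals, the median signal of all probe sets (19.4), kept 46 of the 48 for testing. The testis isoforms Cox6b2 and Cox7b2 fell below it and were not tested.

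Total RNA of 8 gastrocnemius muscle samples on the C57/Bl6J background was hybridised, 1 Affymetrix array per sample. Of these, 4 were labelled wild type and serve as control (WT), and 4 were labelled GR KO. The design text names the mutants GR(i)skm-/-. The Cre driver, the way and time of deletion, the age and the sex of the mice, and any pooling of animals are details that the sources used here do not give. The labels number the samples of a group from 1 to 4 without saying that they came from separate animals, so a p-value here speaks only to the variation among the samples, part of which may be technical.

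Complexes II to IV pass electrons from succinate and ubiquinol to oxygen by way of cytochrome c, and complexes III and IV pump protons as they do so. Complex V, the ATP synthase, uses the proton gradient to make ATP. Skeletal muscle fibres carry these complexes in proportion to their oxidative capacity, and in complex IV several small subunits exist as a muscle form and a form found in most tissues. The glucocorticoid receptor, encoded by Nr3c1, is a hormone-activated transcription factor with many metabolic targets in muscle.

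The values are MAS5 signals on a linear scale, and a signal belongs to its own probe set, so the signals of different genes do not rank their abundance. Where signals of a pair of genes are subtracted below, the shift of that difference between the groups is what is compared. The Nr3c1 probe set with the highest control mean read 377, 307, 307 and 352 on the control arrays and 134, 79, 76 and 94 on the GR_KO arrays. Its other probe sets also had lower GR_KO means. Without overlap was the probe set at 100 to 189 in control and 29 to 43 in GR_KO. The rest overlapped: 213 to 513 against 105 to 222, 51 to 137 against 58 to 86, 13 to 55 against 14 to 37, and, below the filter, 9 to 22 against 3 to 12. Median signals ran from 18 to 26 per array. Control replicate 4 stood apart from the other arrays: it had the highest median, and its mean spike-in signal was 6424, where the other 7 arrays read 1820 to 3018. Its 8 markers of skeletal muscle (such as Ckm, Acta1 and Myh4) summed to 217136. They came to 87111 to 101413 for the remaining controls and to 82727 to 133227 for GR_KO. Slow-fibre markers summed to 7233 on it and to 12262 to 24414 for the remaining controls, with 14895 to 17977 for GR_KO. Of the 8 markers in each list, 0 of the skeletal muscle and 7 of the slow-fibre markers had a log2 fold change above 0. None of them passed the threshold. These counts include control replicate 4, and the slow-fibre sums of the remaining controls spanned those of GR_KO. Endothelial markers (7 of 8 above 0) summed to 2665 to 3324 on the control and 3455 to 5028 on the GR_KO arrays, and fibroblast and matrix markers (5 of 7 above 0) to 6420 to 12201 and 10909 to 15587. Summed markers of adipocytes (2095 to 5531), macrophages (582 to 1739), erythrocytes (116 to 265) and Schwann cells (1007 to 4019) had overlapping groups. No marker of these lists was at 0 on any array, and the part of other cells in the values below was not tested. In a whole muscle, fewer cells of a type and less RNA per cell cannot be told apart.

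In GR_KO muscle the transcripts of complexes II to V lay close to the control level. Of the 46 tested members, 0 passed an adjusted p of 0.05 in limma in either direction, where 0.0542% of all 11062 genes tested did. The smallest adjusted p of a member was 0.880. The GR_KO signals lay above all control signals for 0 members, beside 1.28% of all genes tested. At an unadjusted p under 0.05 there was 1 member, Sdha, which was lower, against 4.63% of all genes tested. The median log2 fold change of the 46 members was 0.04, beside 0.01 for all genes tested, and 32 members lay above 0 and 14 below. After quantile normalization the sides were 21 above and 25 below, and the median was -0.0054. The median size of a member's difference, whatever its sign, was 0.08 on the log2 scale, beside 0.16 over all genes tested. The members were also brighter, with a median signal percentile of 99.3 beside 69.6, and had a median SE of 0.16 beside 0.20. Genes of like brightness were not compared. The 95% intervals of the members had a median half-width of 0.36 on the log2 scale with 4 arrays per group.

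**Figure D1:**
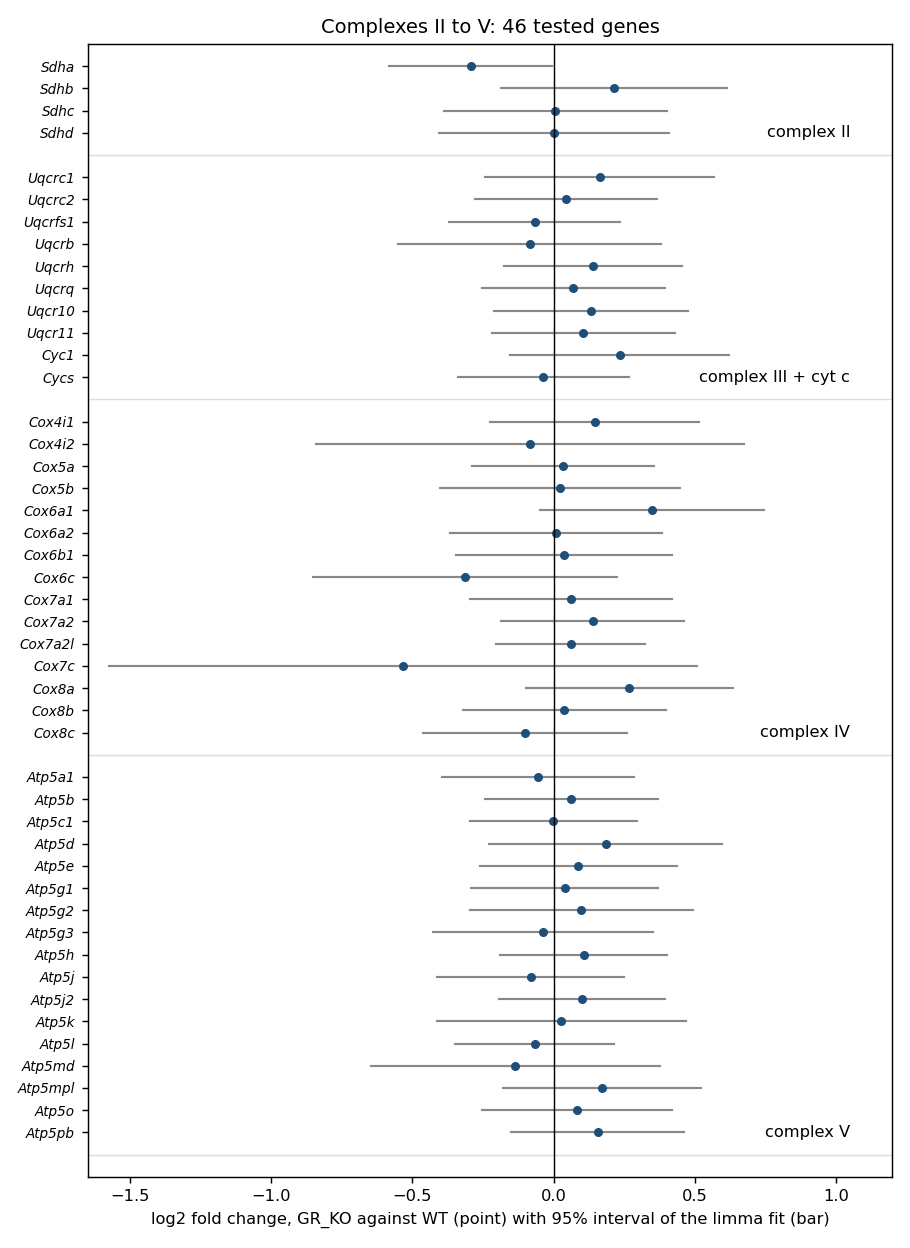
Log2 fold change of GR_KO against WT for the 46 tested members, ordered by complex, with the 95% interval of the limma fit as a bar. Every interval but that of Sdha crosses 0, and Cox7c and Cox4i2, which had dim signals, have the widest bars.

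Complex II, succinate dehydrogenase, links the citric acid cycle to the respiratory chain. Its catalytic subunits read in opposite directions on these arrays. Sdha, the flavoprotein that oxidises succinate, had signals of 3783, 3801, 4246 and 3866 on the control arrays and 2806, 2982, 3658 and 3418 on the GR_KO arrays. All 4 GR_KO signals lay below all 4 control signals, which was seen for 1.29% of all genes tested in this direction, and among the members for Sdha alone. The means were 3924 ± 218 and 3216 ± 391 (SD, n = 4 per group), and the ratio of the geometric means put GR_KO at 81.6% of control. The log2 fold change was -0.29 ± 0.13 (SE), with a 95% interval from -0.58 to -0.0040, and did not pass in limma over all genes (adjusted p = 0.880). Its 2 other probe sets above the filter had log2 fold changes of -0.08 and -0.10.

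Sdhb, the iron-sulfur subunit that takes the electrons from Sdha, read 5665, 6931, 6374 and 5221 on the control arrays and 4942, 7882, 8291 and 7330 on the GR_KO arrays. GR_KO replicates 2 to 4 were above every control array, and replicate 1 was below all of them. Its log2 fold change was 0.21 ± 0.18 (SE, limma adjusted p = 0.881). The log2 difference of Sdhb minus Sdha within an array was 0.62 ± 0.18 in control and 1.13 ± 0.24 in GR_KO muscle (SD, n = 4 per group), a shift of 0.51. It was 0.58, 0.87, 0.59 and 0.43 on the control arrays and 0.82, 1.40, 1.18 and 1.10 on the GR_KO arrays, so that GR_KO replicate 1 lay below control replicate 2 and the other GR_KO arrays above all controls. This difference used only the brightest Sdha probe set, and its size depends on that choice. The next brightest read 2452, 2787, 3287 and 2064 on the control arrays and 2105, 2434, 2461 and 2921 on the GR_KO arrays, with overlapping groups. The pair was picked with its values in view, so no test is given. The membrane anchors Sdhc and Sdhd had log2 fold changes of 0.0066 and 0.00038, and both read highest on control replicate 3 and GR_KO replicate 4 within their groups. Sdhc read 3155 and 3389 there, against 2076 to 2652 on the other control and 2172 to 2500 on the other GR_KO arrays.

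Start regions of members were read from a RefSeq table of promoter windows (GRCm38.p6), each 300 bases long, with 250 before the transcription start and 50 from it on. The table held 39 windows of 36 member genes. The windows of Sdha and Sdhb are shown because the differences of these 2 genes had opposite signs. Those of Cox6a1 and Cox8b are shown as examples of a widely expressed and a muscle-type subunit of complex IV. The windows shown are written 5′ to 3′ on the gene's strand. Capitals mark matches to the core of the binding site of NRF-1, a transcription factor of many respiratory genes. Sdha lies at chr13:74350191-74350490 (minus strand), Sdhb at chr4:140961021-140961320 (plus), Cox6a1 at chr5:115348909-115349208 (minus) and Cox8b at chr7:140900397-140900696 (minus).
Sdha: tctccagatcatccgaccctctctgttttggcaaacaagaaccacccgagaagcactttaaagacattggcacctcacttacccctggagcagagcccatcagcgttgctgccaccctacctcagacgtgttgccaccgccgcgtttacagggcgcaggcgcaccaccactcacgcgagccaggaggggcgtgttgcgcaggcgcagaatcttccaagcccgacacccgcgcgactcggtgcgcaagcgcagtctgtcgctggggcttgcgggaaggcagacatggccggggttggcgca
Sdhb: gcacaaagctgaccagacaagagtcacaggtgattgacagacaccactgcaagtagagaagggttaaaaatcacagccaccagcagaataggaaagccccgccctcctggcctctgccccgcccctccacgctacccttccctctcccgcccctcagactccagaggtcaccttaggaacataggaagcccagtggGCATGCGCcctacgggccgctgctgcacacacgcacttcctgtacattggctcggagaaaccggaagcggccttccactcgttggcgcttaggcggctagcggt
Cox6a1: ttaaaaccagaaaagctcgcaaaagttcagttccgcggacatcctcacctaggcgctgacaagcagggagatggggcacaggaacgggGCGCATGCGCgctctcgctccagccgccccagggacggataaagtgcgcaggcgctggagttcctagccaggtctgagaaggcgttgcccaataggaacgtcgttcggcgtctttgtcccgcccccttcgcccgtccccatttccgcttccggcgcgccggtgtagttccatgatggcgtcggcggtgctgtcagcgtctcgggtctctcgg
Cox8b: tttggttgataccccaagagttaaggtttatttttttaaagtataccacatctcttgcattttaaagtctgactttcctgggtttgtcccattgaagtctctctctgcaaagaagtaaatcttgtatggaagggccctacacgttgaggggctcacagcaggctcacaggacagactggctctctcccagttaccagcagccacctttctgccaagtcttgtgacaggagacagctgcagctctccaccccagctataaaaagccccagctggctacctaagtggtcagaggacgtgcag

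The NRF-1 core was searched as GCGCATGC on both strands, and matches may overlap. In Sdhb a match began at position -54 from the start, and in Cox6a1 a pair of overlapping matches began at -162 and -160. The windows of Sdha and Cox8b held none. Over all members 8 of 39 windows (20.5%) held a match, in Atp5g2, Atp5k, Atp5l, Cox6a1, Cycs, Sdhb, Uqcr11 and Uqcrc1, beside 2.71% of the 32851 windows in the table. Cox6a1 was the only complex IV gene among them. Cycs and Atp5l had log2 fold changes below 0 (-0.04 and -0.07), and the others with a match above 0. A link of the matches to the differences was not tested. The half-site of estrogen-related receptors, TCAAGGTCA, was in 2 member windows (5.13%, Atp5g3 and Sdhd), beside 0.423% of all windows. The palindromic site of the glucocorticoid receptor, searched as AGAACA and TGTTCT with 3 bases between them, was in 0 member windows and in 3 of the 32851. These letters are a description of the windows and not evidence of binding.

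Complex III takes electrons from ubiquinol and hands them to cytochrome c. Its 9 genes and Cycs had log2 fold changes between -0.08 and 0.23, with a median of 0.09, and 7 of 10 lay above 0. Cyc1, the cytochrome c1 subunit that reduces cytochrome c, was the highest of them. It read 4985, 5810, 5816 and 4527 on the control arrays and 4422, 6992, 6942 and 6789 on the GR_KO arrays. GR_KO replicates 2 to 4 exceeded every control and replicate 1 was the lowest of all 8. The log2 fold change of Cyc1 was 0.23 ± 0.18 (SE, limma adjusted p = 0.880), with a range from 0.16 without control replicate 4 to 0.39 without GR_KO replicate 1 (adjusted p = 0.419). Uqcrc1, a core subunit, again had GR_KO replicate 1 lowest and the other GR_KO arrays above the controls, at 5763, 6697, 6146 and 4897 in control and 4609, 7298, 7831 and 6949 in GR_KO muscle, with a log2 fold change of 0.16 ± 0.18.

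The other core subunit, Uqcrc2, read 5628, 5888, 5153 and 6249 on the control arrays and 4727, 6660, 6421 and 5989 on the GR_KO arrays, a log2 fold change of 0.05 ± 0.15 (SE). Uqcrfs1, the Rieske iron-sulfur protein, read 3423, 3096, 3738 and 3510 against 3090, 2873, 3330 and 3906 (-0.07 ± 0.14). For both genes the groups overlapped. The small subunits Uqcr10, Uqcr11, Uqcrh and Uqcrq had log2 fold changes from 0.07 to 0.14. The small subunit Uqcrb had -0.08 ± 0.21, with 18281 on control replicate 4 and 9419 to 13324 on the other 7 arrays. Its second probe set read 1997 on control replicate 4, the lowest of the controls. Cycs, which carries electrons from complex III to complex IV, read 5420, 5119, 4872 and 5993 on the control arrays and 5477, 4407, 5785 and 5240 on the GR_KO arrays. Its log2 fold change was -0.04 ± 0.14, and the groups overlapped.

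**Figure D2:**
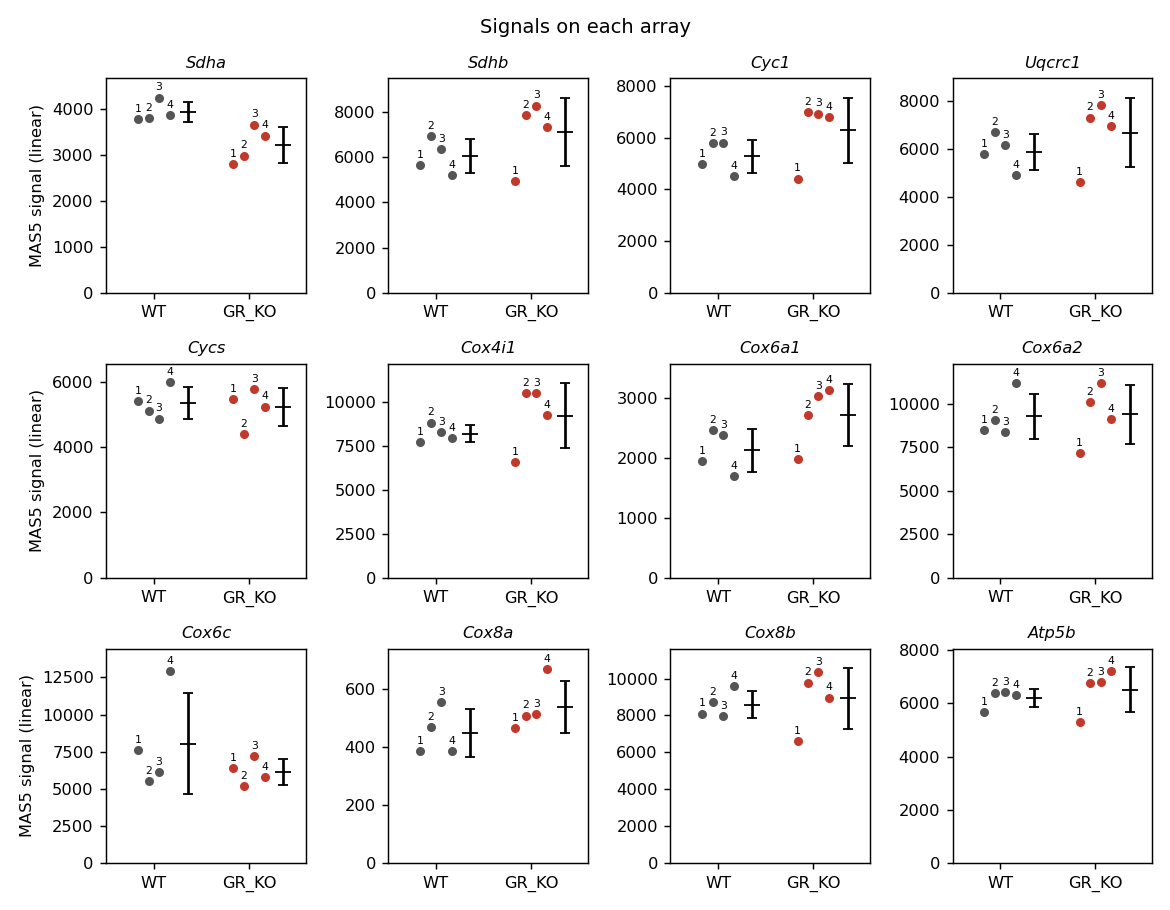
MAS5 signal (linear, each axis from 0) of 12 members on each array, with the replicate number above each point and the mean ± SD of 4 arrays as a bar. The 4 GR_KO points of Sdha lie below its control points, whereas for Sdhb, Cyc1, Uqcrc1 and Cox4i1 GR_KO replicate 1 is the lowest array and replicates 2 to 4 exceed the controls.

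Complex IV, cytochrome c oxidase, reduces oxygen to water. The median log2 fold change of its 15 tested genes was 0.04, with 11 above 0 and 4 below. Cox4i1, the widely expressed form of the largest nuclear subunit, read 7736, 8846, 8316 and 7955 on the control arrays and 6599, 10517, 10524 and 9280 on the GR_KO arrays. Again GR_KO replicate 1 was the lowest of the 8 and the others of its group exceeded the controls (log2 fold change 0.15 ± 0.17, SE). Cox5a read 6970, 7343, 7012 and 8457 against 6244, 7904, 8758 and 7714, a log2 fold change of 0.03 ± 0.15. Cox5b, the zinc-binding subunit, read 9640, 9968, 8817 and 13968 against 8034, 12281, 12552 and 10155 (0.02 ± 0.19). Both had overlapping groups, and both were highest among the controls on replicate 4.

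The lowest and the highest difference among the tested genes of complex IV came from small subunits. Cox6c read 7586, 5489, 6114 and 12953 on the control arrays and 6414, 5176, 7212 and 5761 on the GR_KO arrays. Its log2 fold change of -0.31 ± 0.24 (SE) was -0.057 without control replicate 4, and its second probe set had 0.10. Cox7c, at 20, 18, 16 and 59 against 33, 14, 14 and 12, was close to the filter on most arrays and highest on control replicate 4. Its log2 fold change was -0.53 ± 0.47, and -0.10 without control replicate 4. Cox8c, a testis form of subunit 8, read 80, 74, 66 and 74 against 73, 58, 77 and 67 (-0.10 ± 0.16). Cox7a2l, a supercomplex factor related to subunit 7A, had 0.06 ± 0.12, the smallest error among the tested members.

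Subunits 6A, 7A and 8 of complex IV each have a form of heart and skeletal muscle and a form of most other tissues, and subunit 4 has a lung form. The widely expressed Cox6a1 had the highest log2 fold change of the 46 tested members, 0.35 ± 0.18 (SE, limma adjusted p = 0.880). It read 1948, 2456, 2379 and 1696 on the control arrays and 1982, 2714, 3027 and 3118 on the GR_KO arrays, and its second probe set had 0.29. GR_KO replicates 2 to 4 were above all controls, and replicate 1 lay among them. Its muscle partner Cox6a2 read 8489, 9056, 8395 and 11216 against 7170, 10107, 11201 and 9150, a log2 fold change of 0.0093 ± 0.17. Cox8a, the widely expressed subunit 8, was the second highest of the tested members at 0.27 ± 0.17, with 385, 467, 555 and 384 against 465, 507, 512 and 668. Its second probe set above the filter had 0.22. With all probe sets of the gene averaged, including a dim probe set below the filter at -0.52, Cox8a had -0.012. Its muscle partner Cox8b read 8098, 8708, 7956 and 9591 against 6613, 9778, 10336 and 8964 (0.04 ± 0.16).

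Cox7a2, the widely expressed subunit 7A, read 8971, 9382, 8287 and 9708 against 8134, 10763, 11548 and 9829, a log2 fold change of 0.14 ± 0.15 (SE). Its muscle partner Cox7a1 read 3484, 4152, 3905 and 3127 against 2899, 3912, 4281 and 4308 (0.06 ± 0.16). The lung form Cox4i2 was dim at 32, 39, 34 and 17 against 28, 17, 30 and 40 (-0.08 ± 0.34). In each of these genes the groups overlapped.

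The tissue form over the widely expressed form was then compared within each array, as a log2 difference of their signals. For Cox6a2 over Cox6a1 this was 2.14 ± 0.41 in control and 1.80 ± 0.16 in GR_KO muscle (SD, n = 4 per group), a difference of -0.34 (exact permutation test over 70 arrangements, two-sided, p = 0.257, adjusted over the 4 pairs 0.629). Control replicate 4 was highest at 2.73. With each array left out in turn the difference ran from -0.45 without control replicate 3 to -0.14 without control replicate 4. Cox8b over Cox8a shifted by -0.23 (exact p = 0.314, adjusted 0.629), by -0.37 without control replicate 3, by -0.11 without control replicate 4, and by 0.050 with averaged probe sets. Cox7a1 over Cox7a2 shifted by -0.08 (exact p = 0.629, adjusted 0.657), by -0.00087 without control replicate 3, and by -0.18 without control replicate 4. Cox4i2 over Cox4i1 shifted by -0.23 (exact p = 0.657, adjusted 0.657), by 0.072 without GR_KO replicate 2, and by -0.47 without control replicate 4. All 4 shifts were below 0 with all arrays, and none passed. The smallest p this test can give with 4 against 4 is 0.0286.

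**Figure D3:**
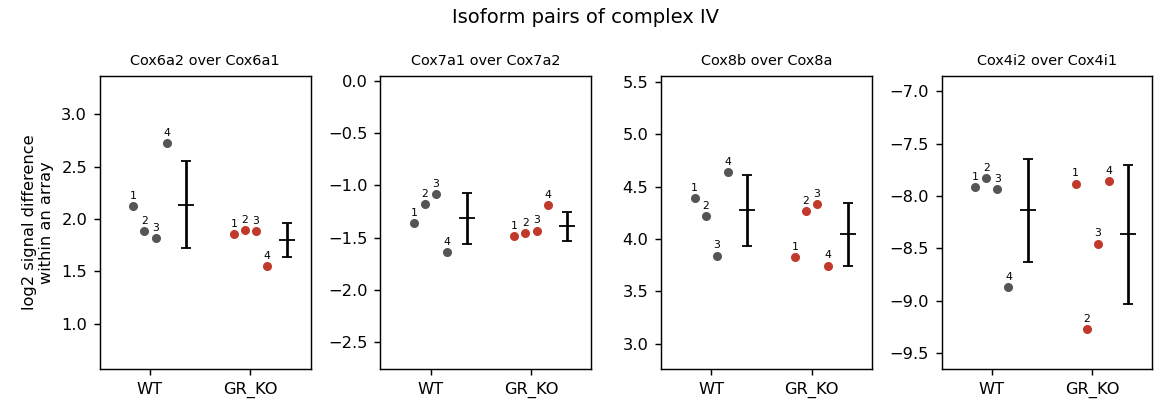
Log2 signal of the tissue isoform minus that of the widely expressed isoform on each array for 4 subunits of complex IV, with replicate numbers and mean ± SD of 4 arrays; each axis spans the same width. The groups overlap in every pair, and control replicate 4 is the highest control for Cox6a2 over Cox6a1 and Cox8b over Cox8a and the lowest for the other pairs.

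Complex V consists of the catalytic F1 head, a rotor with a ring of c subunits, a peripheral stalk and small membrane subunits. Its 17 genes had log2 fold changes between -0.13 and 0.18 with a median of 0.06, and 11 lay above 0. The F1 subunits that hold and turn over ATP had differences near 0. Atp5a1, the alpha subunit, read 5708, 6828, 7198 and 5422 on the control arrays and 4908, 6362, 6230 and 6709 on the GR_KO arrays, a log2 fold change of -0.06 ± 0.15 (SE). Atp5b, the beta subunit, read 5682, 6371, 6434 and 6320 against 5294, 6749, 6800 and 7216 (0.06 ± 0.14). Atp5c1, the gamma subunit of the rotor, read 6547, 6632, 6521 and 7600 against 5940, 6922, 7713 and 6772 (-0.00071 ± 0.13). The control and GR_KO signals of all 3 overlapped. The 95% intervals ran from -0.39 to 0.28, from -0.24 to 0.37 and from -0.30 to 0.29.

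Atp5d, the delta subunit at the foot of the F1 rotor, was the highest member of complex V. It read 8444, 9072, 7839 and 8546 on the control arrays and 6659, 12071, 11466 and 9290 on the GR_KO arrays, a log2 fold change of 0.18 ± 0.19 (SE), and its second probe set also had 0.18. The 3 genes of the c ring, Atp5g1, Atp5g2 and Atp5g3, had 0.04, 0.10 and -0.04. The stalk genes Atp5h, Atp5j, Atp5o and Atp5pb had 0.11, -0.08, 0.08 and 0.16. Among the small membrane subunits Atp5md, the lowest of the complex, read 4050, 4962, 3475 and 2545 against 3684, 2314, 4313 and 3326 (-0.13 ± 0.23). Its groups overlapped in part, with GR_KO replicate 2 below every control and control replicate 2 above every GR_KO array. Atp5mpl had 0.17 ± 0.16, and Atp5j2, Atp5k and Atp5l lay between -0.07 and 0.10. Atp5e, the epsilon subunit of F1, had 0.09 ± 0.16.

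Many members deviated in the same direction on an array. The median deviation of the 46 genes from their 8-array means was -0.07, 0.02, -0.06 and -0.07 on the control arrays and -0.27, 0.11, 0.20 and 0.05 on the GR_KO arrays, in log2 units. GR_KO replicate 1 had the lowest signal of all 8 arrays for 29 of 46 members (63.0%), where it was the lowest for 10.8% of all genes tested. GR_KO replicate 3 had the highest for 19 members (41.3%, beside 14.7% of all genes tested), for 22 after median centring and for 2 after quantile normalization. The lead of GR_KO replicate 1 depended on the scaling: it was lowest for 24 members after median centring and for 4 after quantile normalization, where control replicate 4 was lowest for 21. In complexes III, IV and V the same array was lowest and the same array highest, with GR_KO replicate 1 at -0.27, -0.26 and -0.27 and GR_KO replicate 3 at 0.19, 0.22 and 0.21. In complex II the median was 0.29 on control replicate 3 and on GR_KO replicate 4, -0.30 on control replicate 4 and -0.28 on GR_KO replicate 1.

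**Figure D4:**
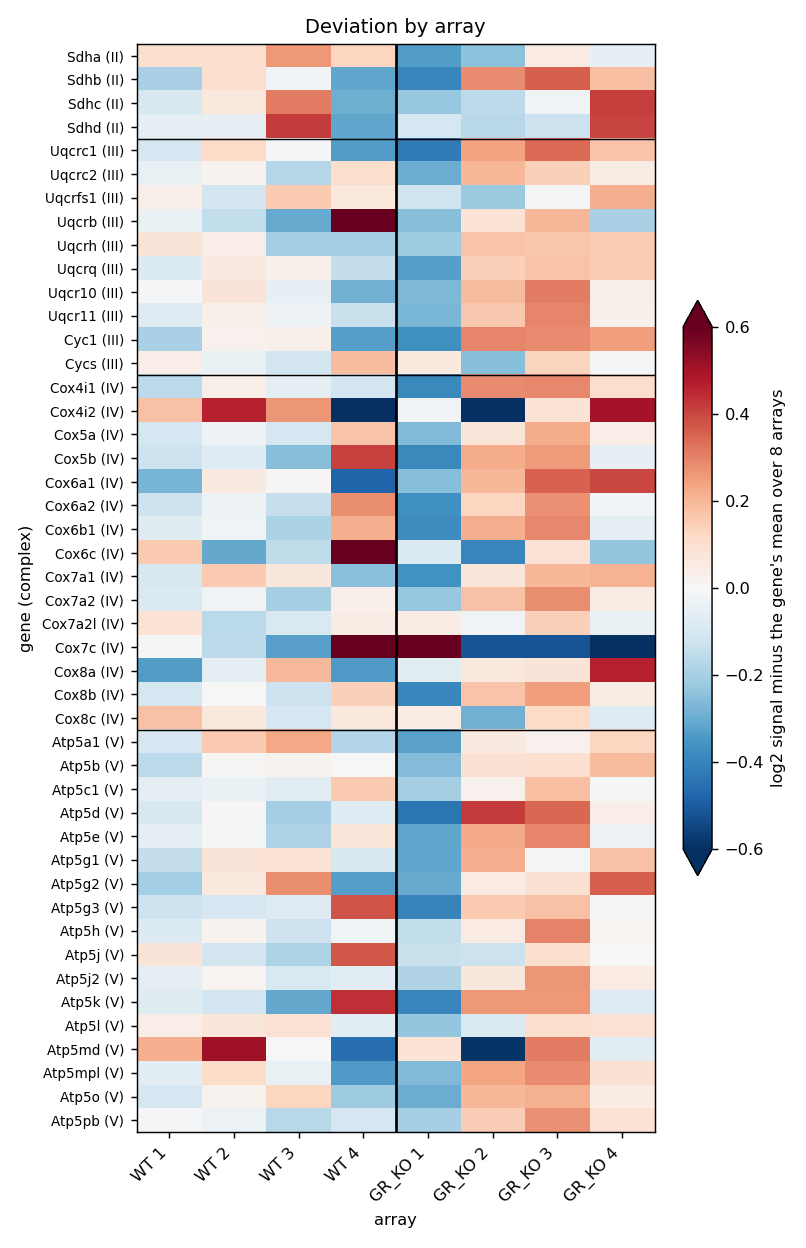
Log2 signal of each tested member minus its mean over the 8 arrays, by array (columns) and gene (rows, complex in brackets); colours end at 0.6 in either direction. GR_KO replicate 1 is blue for most rows of complexes III to V and GR_KO replicate 3 red, and control replicate 4 reaches both ends of the colour scale.

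Control replicate 4 was an extreme of its group for 34 of the 46 members, the highest for 16 and the lowest for 18. For control replicate 3 these were 12 and 19. Among all 8 arrays, control replicate 4 was lowest for 17.4% and highest for 19.6% of members, beside 28.3% and 26.7% of all genes tested. Without it the median of the members was 0.08, beside 0.02 for all genes tested, and 0 members had an unadjusted p under 0.05, beside 4.57% of all genes tested. Without GR_KO replicate 1 the median was 0.16, beside 0.02 for all genes tested, with 35 members above 0 and 11 below. At an unadjusted p under 0.05 there were then 6 members, all higher (13.0%, beside 10.8% of all genes tested): Atp5d, Cox4i1, Cox6a1, Cyc1, Sdhb and Uqcrc1. Their log2 fold changes ran from 0.30 for Cox4i1 to 0.49 for Cox6a1, and none passed over all genes (smallest adjusted p = 0.419). The medians of complexes III, IV and V were 0.20, 0.15 and 0.16 without this array. Leaving out GR_KO replicate 3 moved the members the other way: their median was 0.010, beside 0.015 for all genes tested, with 26 above 0 and 20 below. The medians of complexes III, IV and V were then 0.025, -0.039 and 0.024. Sdha stayed below 0 without each array in turn, between -0.36 and -0.23.

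Further probe sets gave a second reading for many members. Of the 48 genes 30 had more than 1 probe set. Besides the brightest ones, 38 member probe sets were above the filter, and 33 of them had a log2 fold change of the same sign as the brightest of their gene. The other 5 belonged to Atp5a1, Atp5pb, Cox5b, Cox6c and Sdhc and had 0.25, -0.04, -0.14, 0.10 and -0.14. In limma over every probe set above the filter, 0 member probe sets passed (smallest adjusted p = 0.923).

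Genes that build or serve these complexes were taken from a list of 55, which held the members Atp5md and Atp5mpl under older symbols. With members left out, 49 were on the array and 47 were tested. None passed in limma, and 3 of 47 had an unadjusted p under 0.05, beside 4.63% of all genes tested, all lower (Tmem70, Lrpprc and Cox15). Of the 47, 22 lay above 0 and 25 below, with a median of -0.0049, and the smallest adjusted p was 0.850. Those at the ends were Tmem70, an assembly factor of ATP synthase (-0.71 ± 0.32, SE), and Lrpprc, which stabilises mitochondrial messenger RNAs (-0.56 ± 0.18), and on the other side Bcs1l, which inserts the Rieske protein into complex III (0.38 ± 0.20), and Coa3, an assembly factor of complex IV (0.30 ± 0.21). Cox15, which makes heme a for complex IV, had -0.52 ± 0.15 and was the 1 gene of the list whose GR_KO signals all lay below the control signals, beside 1.29% of all genes tested, with means of 104 and 73. It was named after its values were seen.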

How the data were processed

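The deposited values are intensities on a linear scale. Per the submitters' processing notes the authors used MAS5, and the sources used here do not give its version or scaling target. Platform annotation gave 1 gene symbol to 34945 of the 45101 probe sets, and all 48 members matched a RefSeq gene. Log2 signals were used without further normalization, and a signal of 0 was set to the smallest positive value of its array. Genes were tested if their mean log2 signal exceeded the median of all probe sets. R 4.3.3 ran a two-sided limma 3.58.1 fit on group alone, with a trended eBayes prior, adjusted by Benjamini-Hochberg over all 11062 genes at 0.05, and the steps were tested on simulated data. Errors are SE of the fit or SD of 4 arrays. A difference of GR_KO against control is given on the log2 scale. The number of arrays limits the precision. Alternatives were 2 other scalings, pseudocounts of 2 and 6, other filters, probe set rules and variance priors, array weights, a replicate block, and leaving out each array.

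Signals were given array by array for members past the threshold or without overlap, the 5 highest and 5 lowest, the isoform pairs and the main catalytic subunits. The members, lists and tests were chosen with earlier results of these data known. Figures were drawn with Python 3.11.15.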

Additional observations from a re-analysis of the deposited data

Results flagged for a closer look

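In groups of 4 arrays, the lowest or highest array was marked when its gap to the nearest other took up more of the group's range than Dixon's 95% critical value, which chance gives in about 1 of 20 groups. Among 102 groups 10 were marked. GR_KO replicate 1 was low for Uqcrh (4304, the others 5548 to 5612), Uqcrq (3476, the others 4825 to 4923) and Cyc1 (4422, the others 6789 to 6992), and high for Cox7c (33, the others 12 to 14). Control replicate 4 was high for Cox7c (59, the others 16 to 20), Atp5c1 (7600, the others 6521 to 6632) and Atp5g3 (12153, the others 8601 to 8883). GR_KO replicate 4 was high for Sdhd (2397, the others 1612 to 1682), and control replicate 1 was low for Atp5b (5682, the others 6320 to 6434). The median deviation of complex V was 0.018 on control replicate 2 and -0.07 to -0.06 on the other controls.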

How the results depend on the processing

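With 4 arrays per group the members' 95% intervals had a median half-width of 0.36 on the log2 scale, and no setting called a member. Over all genes tested 6 passed; the count was 0 without a filter, 1 with averaged probe sets, 2 without trend, 10 with array weights, and 0 to 5 with single arrays left out (0 without control replicate 1 or 3 or GR_KO replicate 2 or 4). Where 0 genes passed in limma, an unadjusted p under 0.05 was reached by 857 without a filter and by 389, 510, 329 and 350 without those arrays. No pairing by replicate number was visible: same-numbered deviations correlated between -0.39 and 0.18, and 0 of 4 samples correlated best with their own number. Such correlations cannot tell whether the samples were paired in the design. With the replicate block 1 gene and 0 members passed.

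Signs of several differences changed, among them that of Cox8a, the second highest tested member. Quantile normalization gave -0.029 for Cox6a2, -0.0059 for Cox7a1, -0.0054 for Cox8b, -0.014 for Uqcrc2, -0.035 for Cox5a and -0.0055 for Atp5b, and median centring 0.031 for Atp5c1. Averaged probe sets gave 0.63 for Cox8c, -0.012 for Cox8a, 0.048 for Cycs, -0.13 for Cox5b, 0.055 for Atp5a1 and 0.050 for Cox8b over Cox8a. The averages of Cox8c, Cox8a, Cycs and Cox5b took in a probe set below the filter, at 1.36, -0.52, 0.49 and -0.82. Array weights gave 0.011 for Cycs and 0.081 for Atp5c1. With single arrays left out the ranges were -0.12 to 0.042 for Atp5a1, -0.061 to 0.065 for Atp5c1, -0.31 to 0.040 for Atp5md, -0.34 to 0.15 for Cox4i2, -0.034 to 0.13 for Cox5a, -0.060 to 0.16 for Cox5b, -0.081 to 0.13 for Cox6a2, -0.013 to 0.19 for Cox7a1, -0.039 to 0.18 for Cox8b, -0.088 to 0.043 for Cycs, -0.013 to 0.15 for Uqcrc2 and -0.47 to 0.072 for Cox4i2 over Cox4i1. The cause was not tested.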
